A study of Mus musculus with 5 samples.

Results

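The 78 mitochondrial ribosomal protein genes of the mouse were followed in RNA libraries of bone marrow hematopoietic stem cells (HSCs), out of 55335 genes in the table. The members were taken by name, as every gene called Mrpl or Mrps followed by a number, leaving out 5 processed pseudogenes. The question was whether the lower level of one member, Mrpl42, in the mutant libraries was shared by the family. Mrpl42 was chosen because it was already known to be lower in these libraries, so its own values are given as a description and support nothing.

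The comparison was between 2 groups. The wild-type group held 3 libraries of control mice, and the RankCre-ki group held 2 libraries of RankCre-ki/wt;Csf1r fl/- mice, in which Cre is placed in the Rank gene and removes the floxed allele of Csf1r, the receptor for the growth factor CSF1, opposite a Csf1r null allele. By the study's methods this Cre acts in macrophages of the embryo and not in HSCs. The alleles of the control mice are given only as wild-type. All mice were 3 weeks old, and the labels name the strain C57BL/6J throughout, whereas the methods say that the Csf1r null line had been kept on C3H/HeJ. Each library was made from 80 to 90 sorted KSL CD48- CD150+ cells, where KSL stands for Kit+, Sca-1+ and lineage negative.

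A mitochondrion carries its own ribosome, the mitoribosome, which translates the few proteins that mitochondrial DNA encodes, all of them parts of the oxidative phosphorylation complexes. Its rRNAs come from mitochondrial DNA, but every one of its proteins is encoded in the nucleus, made in the cytosol and imported. Some of these proteins have a counterpart in bacterial ribosomes and others are found only in mitochondria. Mrpl42 is of the latter kind and sits in the large subunit. Names do not always follow the place: Mrps18a and Mrps30 are parts of the large subunit, and Mrps36 is now assigned to the oxoglutarate dehydrogenase complex.

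The stretches before the start of 3 members lower in RankCre-ki libraries are shown first, because members of a family can share promoter letters. They are from RefSeq (GRCm38.p6), run 5′ to 3′ on the strand of the gene, end at the RefSeq start or where an annotated exon begins, and carry in capitals the motif matches described further on.
Mrpl42, chr10:95501950-95502199, minus strand: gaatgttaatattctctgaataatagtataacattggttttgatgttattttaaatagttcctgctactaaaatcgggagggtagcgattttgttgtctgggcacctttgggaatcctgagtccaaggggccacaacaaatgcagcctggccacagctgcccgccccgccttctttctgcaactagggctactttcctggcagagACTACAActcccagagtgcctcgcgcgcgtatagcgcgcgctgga
Mrps14, chr1:160194965-160195214, plus strand: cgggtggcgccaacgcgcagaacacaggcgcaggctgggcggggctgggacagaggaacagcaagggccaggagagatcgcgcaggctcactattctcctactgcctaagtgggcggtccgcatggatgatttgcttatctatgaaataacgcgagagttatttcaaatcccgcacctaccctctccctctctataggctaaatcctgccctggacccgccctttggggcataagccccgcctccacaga
Mrpl33, chr5:31613701-31613938, plus strand: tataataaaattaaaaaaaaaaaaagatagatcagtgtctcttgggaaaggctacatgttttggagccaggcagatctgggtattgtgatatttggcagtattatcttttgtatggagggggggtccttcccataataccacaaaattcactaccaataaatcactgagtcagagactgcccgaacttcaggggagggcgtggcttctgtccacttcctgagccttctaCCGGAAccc
The Mrpl42 stretch holds ACTACAA, the core of the ZNF143 motif, starting 45 bases before the start. The Mrpl33 stretch holds CCGGAA, the core bound by ETS factors such as GABPA, starting 21 bases before the start. The Mrps14 stretch holds none of the 4 motifs searched, and its CCGGAA match lies past the start.

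Values are TPM, a length-corrected relative abundance in which each library sums to 1000000, so a gene's TPM is its share of that library's RNA. The read depth is not known from TPM, and bulk values cannot tell less RNA per cell from fewer cells that express a gene. The libraries differed beyond genotype. Genes at 1 TPM or more numbered 9021 to 11084 per wild-type library, against 12801 and 16386 per RankCre-ki library. By their names the libraries belong to 2 series, here called name series 1 (RankCre-ki replicate 2 with wild-type replicate 1) and name series 2 (the other 3). The Y-linked gene Eif2s3y was at 41.6 and 62.5 TPM in the libraries of series 1 and at 0, 0 and 0.288 TPM in those of series 2, although RankCre-ki replicate 2 is labelled female. All 6 HSC markers checked (Hlf, Kit, Slamf1, Procr, Mecom and Ly6a) were at 1 TPM or more in every library. The 10 markers of cells that the sort excludes summed to 0.0198 to 1.26 TPM in wild-type and 9.63 to 34.5 TPM in RankCre-ki libraries. Among them Cd48, which the gate excludes, was at 0 in every wild-type library and at 4.92 and 5.62 TPM in RankCre-ki libraries, and Klrb1c was at 0.0516, 0 and 0 against 4.40 and 12.8 TPM, whereas Ly6g was at 0 in all 5. The 5 macrophage markers summed to 0.0377 to 21.4 and 1.72 to 8.01 TPM, 4 stromal markers to 0.0668 to 0.404 and 0 to 1.27 TPM, and 3 endothelial markers to 18.3 to 35.3 and 28.6 to 28.8 TPM. Most of the endothelial sum was Pecam1 (18.3 to 33.1 TPM), with Cdh5 at 0.0572 TPM or less and Kdr at 2.15 TPM or less. The highest macrophage sum, in wild-type replicate 2, was Vcam1 (9.62 TPM) and C1qb (11.8 TPM), and Adgre1 was at 0 in all 5 libraries. The part of these differences in the results was not tested.

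Nearly the whole family was detected in every library. In RankCre-ki replicates 1 and 2 and in wild-type replicate 3, all 78 members were at 1 TPM or more, against 76 in wild-type replicate 1 and 77 in wild-type replicate 2. All 78 passed the filter for testing, at least 1 TPM in at least 2 libraries, which 13981 genes passed in all. Of the 78, 33 share exon sequence with another gene (8 with a gene on the same strand, 28 with a gene on the opposite strand), and whether strand was used in counting is not given in the sources used here, so those members are less certain.

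Mrpl42 (ENSMUSG00000062981, chromosome 10, 95480805 to 95501940 on the minus strand in GRCm38), which shares no exon with another gene, was measured at 692, 1268 and 972 TPM in the wild-type group, whereas the RankCre-ki group had 395 and 264 TPM. Both RankCre-ki libraries lay below all wild-type libraries, and the wild-type mean was 2.97 times the RankCre-ki mean. On the log2(TPM + 1) scale, which every fold change here uses, the change was -1.55 ± 0.43 (SE, adjusted p = 0.521 by limma over 13981 genes). It was -1.39 within name series 1 and -1.49 within name series 2, and -1.26 without RankCre-ki replicate 2. Mrpl42 made up 7.75, 11.6 and 9.75% of the family's summed TPM in wild-type and 4.92 and 3.39% in RankCre-ki libraries. Against the median member it stood 9.92, 12.5 and 10.4 times higher in wild-type and 4.51 and 3.48 times higher in RankCre-ki libraries. It nevertheless remained among the most abundant members, ranking 2, 1 and 1 of 78 in wild-type and 1 and 3 in RankCre-ki libraries.

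The lower Mrpl42 was not shared by the family as a whole. Of the 78 members, 41 had a fold change below 0 and 37 above 0, with a median of -0.05, an interquartile range of -0.58 to 0.49 and a range of -1.55 to 3.74. Leaving out Mrpl42 left the median at -0.05, with 40 below and 37 above 0. No member passed the threshold of an adjusted p of at most 0.1 with an absolute log2 fold change above 2, nor did any of the 13981 genes (0.0%), the smallest adjusted p by limma being 0.521; 960 genes had an unadjusted p under 0.05. The median of all genes tested was 0.52, so that relative to all genes the family stood 0.56 lower, and 52.6% of members against 27.7% of all genes were below 0. Which of these readings holds depends on the scaling: under median-ratio scaling of the TPM values the family median was -0.55 and that of all genes 0.17, and under quantile normalization they were -0.15 and -0.04. The gap between the family and all genes was -0.91 with a pseudocount of 0.1 and -0.28 with no filter on low values. Without RankCre-ki replicate 2 the family median was 0.16 and that of all genes 0.58.

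**Figure D1:**
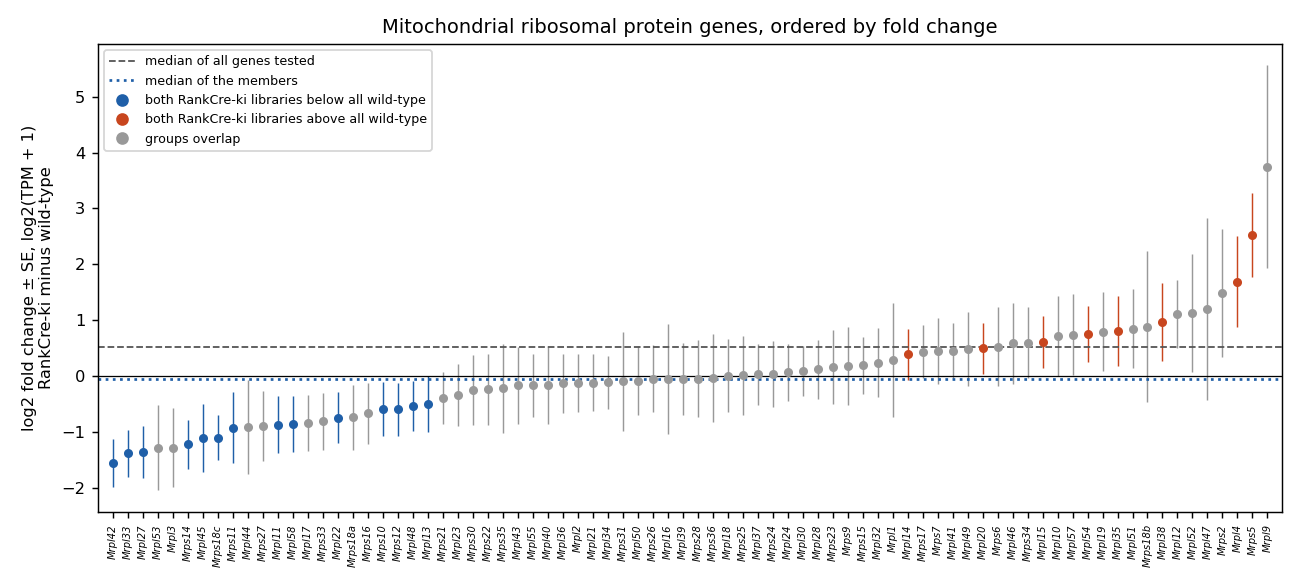
Log2 fold change (RankCre-ki minus wild-type, log2(TPM + 1)) of each of the 78 members on the y axis, ordered along the x axis, with bars of 1 SE. Blue marks the 14 members with both RankCre-ki libraries below all 3 wild-type libraries and orange the 8 with both above; the family median (-0.05, dotted) lies below the median of all genes tested (0.52, dashed).

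Some members separated in the direction of Mrpl42, each by less than Mrpl42 did. In 14 of 78 members (17.9%) both RankCre-ki libraries lay below all wild-type libraries, against 3.71% of all genes tested. In 8 members (10.3%) both lay above, against 18.8% of all genes. At an unadjusted limma p under 0.05, which 6 members reached in all (7.69%, against 6.87% of all genes), 5 members were lower (6.41%, against 0.529% of all genes) and 1 was higher (1.28%, against 6.34%). Leaving out Mrpl42, 13 of 77 lay below (16.9%) and 4 of 77 had p under 0.05 and were lower (5.19%). These shares of all genes are not matched for level, as every member has a mean of 20 TPM or more. Between genes of 20 to 50 TPM and those of 200 TPM or more, the share below went from 4.32% to 13.4%. The share lower at an unadjusted limma p under 0.05 went from 0.672% to 4.12%. The shares of all genes given by subunit, name series and promoter letters are not matched either. The counts shift with single libraries, and fewer libraries separate more easily: 27 members lay below without wild-type replicate 1 (12.3% of all genes), 25 without RankCre-ki replicate 1 (12.1%), and 17 without RankCre-ki replicate 2 (7.6%), while leaving out wild-type replicates 2 and 3 gave 16 (7.32%) and 18 (5.66%). The members above numbered 14 to 16 in each of these, against 24.3 to 33.8% of all genes. The count of 5 members with p under 0.05 and lower was 1 without RankCre-ki replicate 2, and leaving out wild-type replicates 1, 2 and 3 in turn gave 8, 2 and 3. It was 0 with the replicate block and with no trend in the limma fit, and 15 under median-ratio scaling.

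The share of members that lay lower was highest among the abundant ones. Bands of mean TPM over the 5 libraries were set after the values had been seen and are a description. Of the 9 members with a mean of 200 TPM or more, 7 were below 0, 4 lay below all wild-type libraries and none lay above, with a median of -0.85 (-0.83 without Mrpl42). Mrpl42 is 1 of the 4. The band is cut on a mean that includes the wild-type values, and Mrpl17 and Mrps18c reach it only through their wild-type libraries (RankCre-ki means under 200 TPM), so part of the lower share is fixed by the cut, which all genes of the band share. Among all 679 genes at that level the median was 0.01, 48.9% were below 0, 13.4% lay below and 13.8% above. In the band of 100 to 200 TPM the 27 members had a median of -0.05 against 0.04 for all 686 genes, with 15 members below 0 against 47.1% of genes and 6 below all wild-type libraries against 9.91% (4 above, against 11.5%). In the band of 50 to 100 TPM the median was -0.12 over 26 members against 0.27 over 1186 genes, 16 were below 0 against 37.2%, and 4 lay below against 7.0% (1 above, against 15.4%). In the band of 20 to 50 TPM the 16 members had a median of 0.76 against 0.61 over 2382 genes, 3 were below 0 against 28%, and none lay below, against 4.32% (3 above, against 20.3%). Of the 5 members with p under 0.05 and lower, 4 were in the highest band (4.12% of its genes) and 1 in the band of 100 to 200 TPM (1.46%), with none in the bands of 50 to 100 TPM (0.843%) and 20 to 50 TPM (0.672%). Across the 78 members the fold change ran against the mean TPM with a Spearman rho of -0.38, across the 4933 genes with a mean of 20 TPM or more, which all members reach, with -0.26, and across all 13981 genes with -0.13. Against exon length the members' rho was -0.02; members of 1 library share its depth and are not independent.

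**Figure D2:**
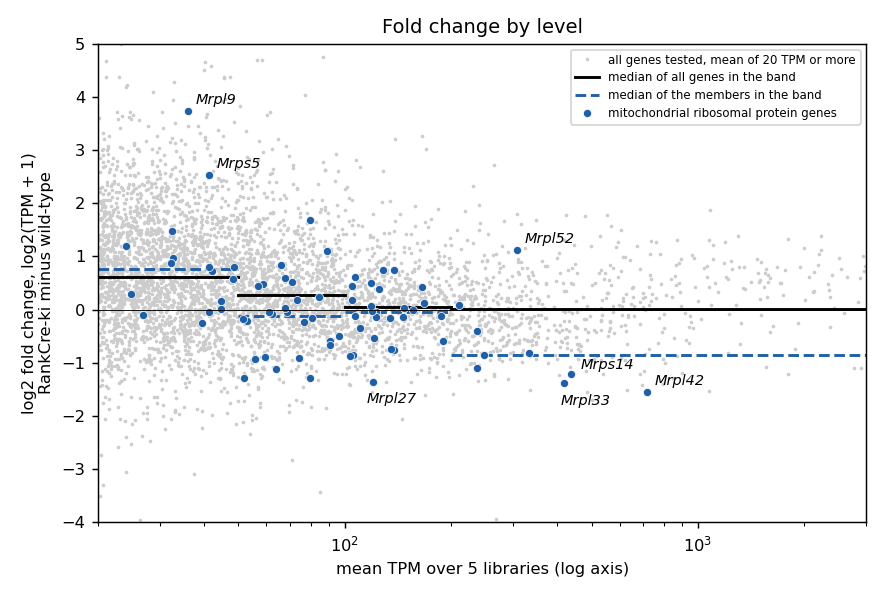
Log2 fold change (RankCre-ki minus wild-type) against mean TPM over the 5 libraries on a log axis, with members in blue and all genes tested in grey; genes outside the axes are not drawn. Solid lines give the median of all genes and dashed lines that of the members in each band, which part at 200 TPM or more (0.01 against -0.85).

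The summed levels add up the same values and are no further support. The family took 0.892, 1.09 and 0.997% of all TPM in wild-type and 0.804 and 0.778% in RankCre-ki libraries, 9935 ± 995 TPM (SD, n = 3) against 7906 ± 183 TPM (SD, n = 2), 20.4% lower with no overlap. With Mrpl42 left out the sums were 8232, 9646 and 8994 against 7640 and 7513 TPM, 15.4% lower and again without overlap. The 9 abundant members summed to 3662, 4323 and 3478 against 2000 and 2268 TPM, 44.1% lower. Without Mrpl42 the others of these summed to 2970, 3055 and 2505 against 1605 and 2005 TPM, 36.5% lower and still without overlap. Both of these differences are partly fixed by the cut at 200 TPM. The other 69 summed to 5262, 6591 and 6489 against 6035 and 5508 TPM, 5.59% lower with overlapping groups. The median member stood at 69.8, 102 and 93.9 TPM in wild-type and at 87.7 and 75.8 TPM in RankCre-ki libraries, which overlap. With 3 against 2 libraries an exact permutation test cannot give a two-sided p under 0.2, so none is given. The sums of both subunits lay lower: the large subunit summed to 6194, 6894 and 6436 against 5309 and 5392 TPM and the small subunit to 2697, 3824 and 3366 against 2615 and 2294 TPM, without overlap. Mrpl42 alone made up 56.0% of the difference in the large subunit; without it that subunit summed to 5502, 5626 and 5464 against 4913 and 5128 TPM, 9.22% lower.

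By subunit and by origin the medians were near 0 as deposited, and between -0.58 and -0.47 under median-ratio scaling. The median was -0.05 over 51 members of the large subunit, 9 of which lay below (17.6%, against 3.71% of all genes) and 7 above (13.7%, against 18.8%) all wild-type libraries, and -0.05 over 26 members of the small subunit, with 5 below (19.2%) and 1 above (3.8%). Large subunit members with a bacterial counterpart (30) had a median of 0.03 and those particular to mitochondria (21), the kind that Mrpl42 belongs to, -0.08. In the small subunit the medians were -0.004 over 16 members with a bacterial counterpart and -0.07 over 10 particular to mitochondria. In the small subunit 5 of 16 members with a bacterial counterpart lay below (31.2%) and 0 of 10 particular to mitochondria. The large subunit did not share this split, with 16.7% below among members with a bacterial counterpart and 19.0% among those particular to mitochondria. The split was read after the values had been seen and was not tested.

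The abundant members are described in order of level. Mrps14, a small subunit protein with a bacterial counterpart, was at 380, 765 and 574 TPM in wild-type and 246 and 226 TPM in RankCre-ki libraries. Every wild-type library lay above both RankCre-ki libraries, and the change was -1.22 ± 0.44 (SE, adjusted p = 0.566 by limma). Mrpl33, a small protein of the large subunit, was at 765, 474 and 439 against 209 and 205 TPM. It was the most abundant member of wild-type replicate 1, and its change was -1.38 ± 0.42 (SE, adjusted p = 0.521 by limma). Mrpl33 shares 261 bases of exon with Gm43809 on the same strand, so reads of the pair cannot be fully told apart.

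Mrps18c, a small subunit protein with a bacterial counterpart, had the tightest wild-type values of the family. It was at 307, 298 and 300 TPM in wild-type and at 158 and 123 TPM in RankCre-ki libraries, a change of -1.11 ± 0.41 (SE, adjusted p = 0.580 by limma), and it shares 250 exon bases with Gm43511 on the same strand. Mrps33, particular to the mitochondrial small subunit, was at 234, 625 and 365 against 252 and 181 TPM, and Mrpl17 of the large subunit at 193, 426 and 292 against 203 and 126 TPM. In both, wild-type replicate 1 lay below RankCre-ki replicate 1, so the groups overlapped. Mrps21 was at 263, 252 and 250 against 133 and 283 TPM and Mrpl30 at 260, 163 and 192 against 266 and 172 TPM. Neither held a direction: Mrps21 was low in a single RankCre-ki library, and Mrpl30 (0.09 ± 0.45) turned to -0.42 under median-ratio scaling. Mrps12, whose bacterial counterpart lines the decoding centre, was at 322, 158 and 186 against 144 and 136 TPM, below all wild-type libraries but close to 2 of them.

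Mrpl52, a large subunit protein particular to mitochondria, had the only change above 1 among the abundant members. It was at 567, 52.5 and 92.3 TPM in wild-type and 137 and 689 TPM in RankCre-ki libraries. Its high libraries were those of name series 1, one of each genotype, and its change of 1.12 ± 1.06 (SE) was -0.040 without RankCre-ki replicate 2. Within name series 1 and 2 the change was 0.28 and 0.96.

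**Figure D3:**
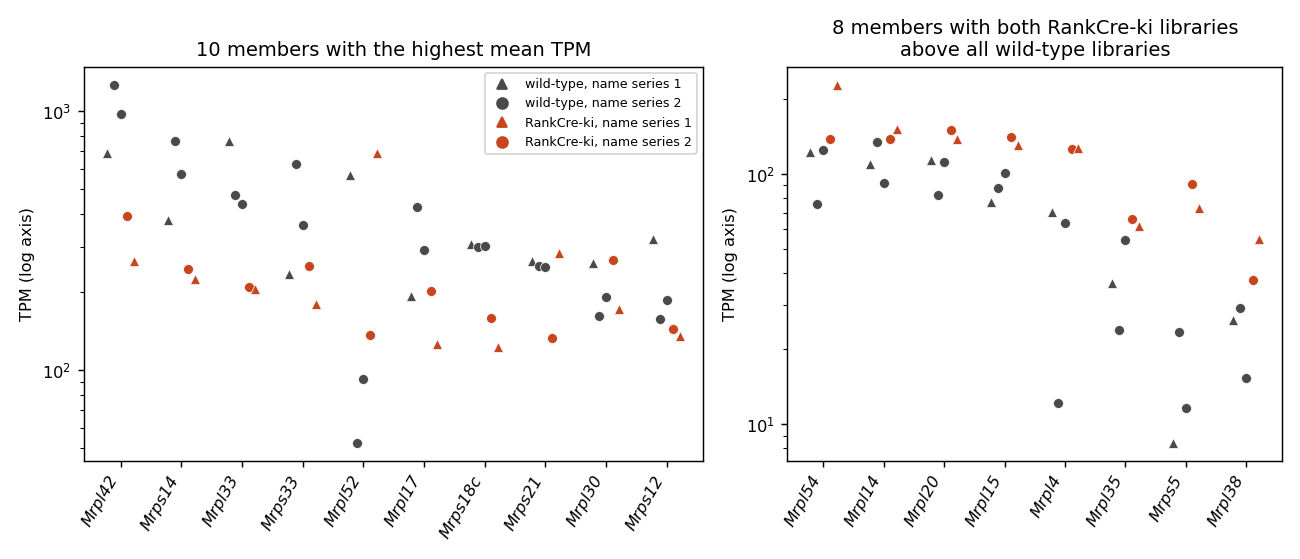
TPM on log axes in each of the 5 libraries, for the 10 members with the highest mean (left) and the 8 members with both RankCre-ki libraries above all wild-type libraries (right). Grey is wild-type and orange RankCre-ki, triangles are name series 1 and circles name series 2. Mrpl42 lies at 692 to 1268 TPM in wild-type and at 264 and 395 TPM in RankCre-ki. Mrpl52 parts mainly by series, and within series 1 and 2 its change was 0.28 and 0.96.

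Below the abundant members, Mrpl27 came nearest to Mrpl42 in size. Mrpl27, whose bacterial counterpart reaches to the peptidyl transferase centre, was at 149, 171 and 158 TPM in wild-type and at 51.2 and 73.6 TPM in RankCre-ki libraries. The groups did not overlap, and the change was -1.36 ± 0.47 (SE, adjusted p = 0.546 by limma). Mrpl45, which anchors the ribosome to the inner membrane, was at 63.4, 57.2 and 127 against 36.0 and 34.7 TPM, a change of -1.11 ± 0.61. The other members with both RankCre-ki libraries below had smaller changes: Mrpl11 (-0.87), at the base of the stalk that receives translation factors, Mrpl58 (-0.86), a peptidyl-tRNA hydrolase built into the large subunit, Mrpl22 (-0.75), Mrps10 (-0.60), Mrpl48 (-0.53) and Mrpl13 (-0.50) lay 0.50 to 0.87 lower, with adjusted limma p of 0.881 to 0.948. Mrps11 changed by -0.92 ± 0.63 (SE), at 68.9, 56.6 and 76.4 against 54.8 and 21.9 TPM, and it shares 173 exon bases with Mrpl46 on the opposite strand. Mrpl3 and Mrpl53 had changes as large (-1.28 each), but their groups overlapped: Mrpl3 was at 61.6, 123 and 119 against 74.4 and 20.3 TPM and Mrpl53 at 57.6, 118 and 32.1 against 35.6 and 16.3 TPM. Mrpl53 shares 695 of its 790 exon bases with Gm42688 on the same strand, and Mrpl3 shares 248 with Gm38077. Reads of these pairs cannot be fully told apart. Mrpl27 shares 75 exon bases with Eme1 on the opposite strand.

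Members also lay higher in RankCre-ki libraries, and among those whose groups did not overlap Mrps5 differed most. Mrps5 (ENSMUSG00000027374, chromosome 2, 127587222 to 127606829, plus strand), a small subunit protein whose bacterial counterpart lies at the mRNA entry, was at 8.43, 23.4 and 11.6 TPM in wild-type and at 90.8 and 72.7 TPM in RankCre-ki libraries. Its lowest RankCre-ki value was above 3 times its highest wild-type value, and the change of 2.53 ± 0.75 (SE, adjusted p = 0.521 by limma) was 2.97 within series 1 and 2.39 within series 2. Mrpl4, a large subunit protein whose bacterial counterpart lines the exit tunnel, was at 70.6, 12.2 and 63.9 against 125 and 127 TPM, 1.69 ± 0.82 (SE, adjusted p = 0.805 by limma). Without wild-type replicate 2, which had the low value, the change was 0.90. Mrpl54 was at 122, 75.5 and 125 against 138 and 227 TPM, Mrpl38 at 26.0, 29.1 and 15.3 against 37.7 and 54.9 TPM, and Mrpl35 at 36.5, 23.7 and 54.7 against 66.2 and 61.9 TPM. These 3 large subunit members had changes of 0.75, 0.97 and 0.80. Mrpl15 was at 77.2, 88.0 and 100 against 140 and 131 TPM, Mrpl20 at 114, 82.5 and 111 against 149 and 138 TPM and Mrpl14 at 109, 134 and 92.2 against 138 and 152 TPM. Their changes of 0.61, 0.49 and 0.38 were near the median of all genes, and under median-ratio scaling those of Mrpl20 and Mrpl14 became -0.011 and -0.12.

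Mrpl9, Mrpl47 and Mrps2, also among the most positive changes, had wild-type libraries with almost no signal. Mrpl9 was at 0.297, 0 and 62.3 TPM in wild-type and 72.7 and 45.0 TPM in RankCre-ki libraries, the widest relative spread of the family in wild-type. The change of 3.74 ± 1.82 (SE) thus comes from 2 libraries in which Mrpl9 was near or listed at 0, while the other wild-type library lay between the RankCre-ki libraries. Mrpl47 was at 0.00972, 28.8 and 42.5 against 28.6 and 20.3 TPM, and its change of 1.20 became -0.52 without wild-type replicate 1. Mrps2 was at 2.47, 28.2 and 42.0 against 47.7 and 41.6 TPM.

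The name series were compared because they share no library. Of the 78 members, 26 were lower in RankCre-ki in both series (33.3%, against 12.9% of all genes), 25 were higher in both (32.1%, against 44.5%) and 27 were opposite or equal to 0 in one. The family median was 0.13 in series 1 and -0.08 in series 2, beside 0.53 and 0.40 for all genes. Across members the changes in the series had a Spearman rho of 0.45, against 0.21 across genes with a mean of 20 TPM or more and 0.15 across all genes tested, a description over genes that share libraries. All 14 members with both RankCre-ki libraries below were lower in both series, as that selection requires.

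**Figure D4:**
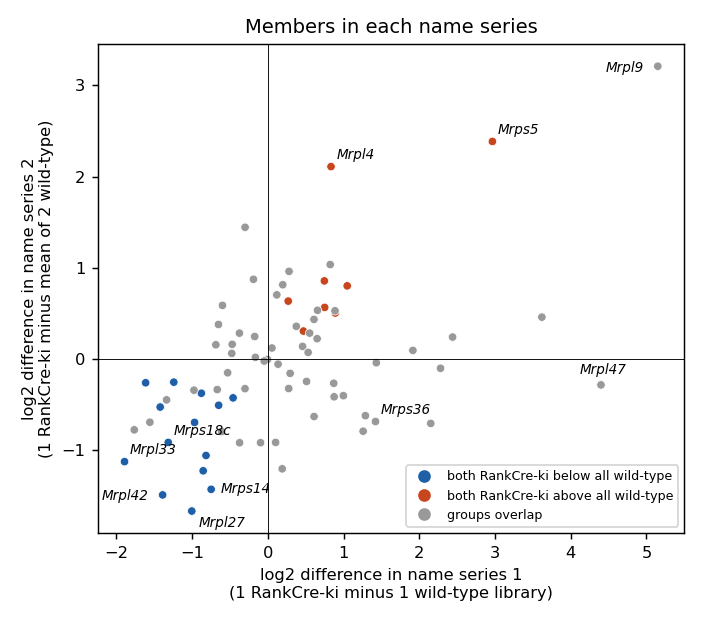
Log2 difference between RankCre-ki and wild-type libraries for each of the 78 members in name series 1 (x axis, 1 against 1 library) and name series 2 (y axis, 1 against 2). Mrpl42 (-1.39, -1.49) lies low in both, Mrps5 (2.97, 2.39) high in both, and Mrpl47 (4.40, -0.28) high in series 1 only.

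Other genes of mitochondrial translation were read from lists fixed with the earlier results known. The 5 mitoribosome proteins without an Mrp name had a median of -0.25. Chchd1, a small subunit protein and the most abundant of these at a mean of 305 TPM, was at 311, 410 and 344 TPM in wild-type and 196 and 262 TPM in RankCre-ki libraries, below all wild-type libraries at -0.64 ± 0.40 (SE). Ptcd3, of the same subunit, lay above at 49.3, 31.5 and 32.1 against 60.6 and 53.6 TPM, and Dap3, Aurkaip1 and Gadd45gip1 overlapped.

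The factors that build and serve the mitoribosome had higher medians than the family. The 26 assembly and rRNA modification genes had a median of 1.30, 22 above 0 (84.6%, against 72.3% of all genes), 9 above all wild-type libraries (34.6%, against 18.8%) and none below (against 3.71%). The 15 translation factors found had a median of 1.44, 13 above 0 (86.7%, against 72.3% of all genes), 6 above all wild-type libraries (40.0%, against 18.8%) and none below (against 3.71%). Most of these genes are far less abundant than the ribosomal proteins, and the median of all genes went from 0.61 at 20 to 50 TPM to 0.01 at 200 TPM or more. Many had a mean under 20 TPM, a level with no band of all genes, so their shares are not matched for level. RankCre-ki libraries also had more genes at 1 TPM or more, and what this adds was not tested. Nsun4, an rRNA methyltransferase, was at 7.86, 0 and 0.223 against 18.8 and 30.8 TPM. Gfm1, the elongation factor for translocation, was at 0.0723, 1.42 and 1.78 against 21.2 and 24.3 TPM. Taco1, an activator of the translation of mt-Co1, was at 11.2 and 4.29 TPM in RankCre-ki libraries and is listed at 0 for every wild-type library. Nsun4 and Gfm1 had an unadjusted p under 0.05 and adjusted limma p of 0.691 and 0.546. Taco1 passed the filter only through the RankCre-ki libraries and so had to differ. Nsun4, Mrm2, Rcc1l and Mtif3 reached 1 TPM in only 1 wild-type library, so they also passed only through the RankCre-ki libraries. With a wild-type library at 0, these genes could not lie below all wild-type libraries. They and Taco1 are counted among the 9 assembly genes and 6 factors above, but support nothing.

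Among 21 aminoacyl-tRNA genes tested the median was 0.48, with 16 above 0 (76.2%, against 72.3% of all genes) and 4 above all wild-type libraries (19.0%, against 18.8%), shares near those of all genes. Among 11 genes of mitochondrial transcription and DNA maintenance the median was -0.11. It was 0.53 with the replicate block, 0.40 with the name series block and 0.39 with a pseudocount of 0.1. Of these genes 3 lay above all wild-type libraries (27.3%, against 18.8% of all genes) and 1 below (9.1%, against 3.71%). Mterf1a, a transcription termination factor, was at 60.4, 64.7 and 24.3 against 16.7 and 8.68 TPM, and as it has a near copy in Mterf1b its reads are uncertain. The cytosolic ribosomal protein genes had a median of 0.73, 0.21 above that of all genes: 82 of 89 tested were above 0 (92.1%, against 72.3% of all genes), with 23 above (25.8%, against 18.8%) and none below (against 3.71%) all wild-type libraries. Their share of TPM, 23.4, 9.32 and 10.5% in wild-type and 15.3 and 26.2% in RankCre-ki libraries, overlapped between genotypes and was highest in both libraries of name series 1. The 37 genes of mitochondrial DNA, the mitoribosome's own templates and RNAs, had a median of -0.08 and held 14.7, 21.0 and 16.7% of TPM in wild-type and 10.7 and 8.21% in RankCre-ki libraries, without overlap. Like the family, they had more genes below all wild-type libraries (6, 16.2%, against 3.71% of all genes) than above (2, 5.4%, against 18.8%). At an unadjusted limma p under 0.05, 4 were lower (10.8%, against 0.529% of all genes) and 0 higher (against 6.34%).

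**Figure D5:**
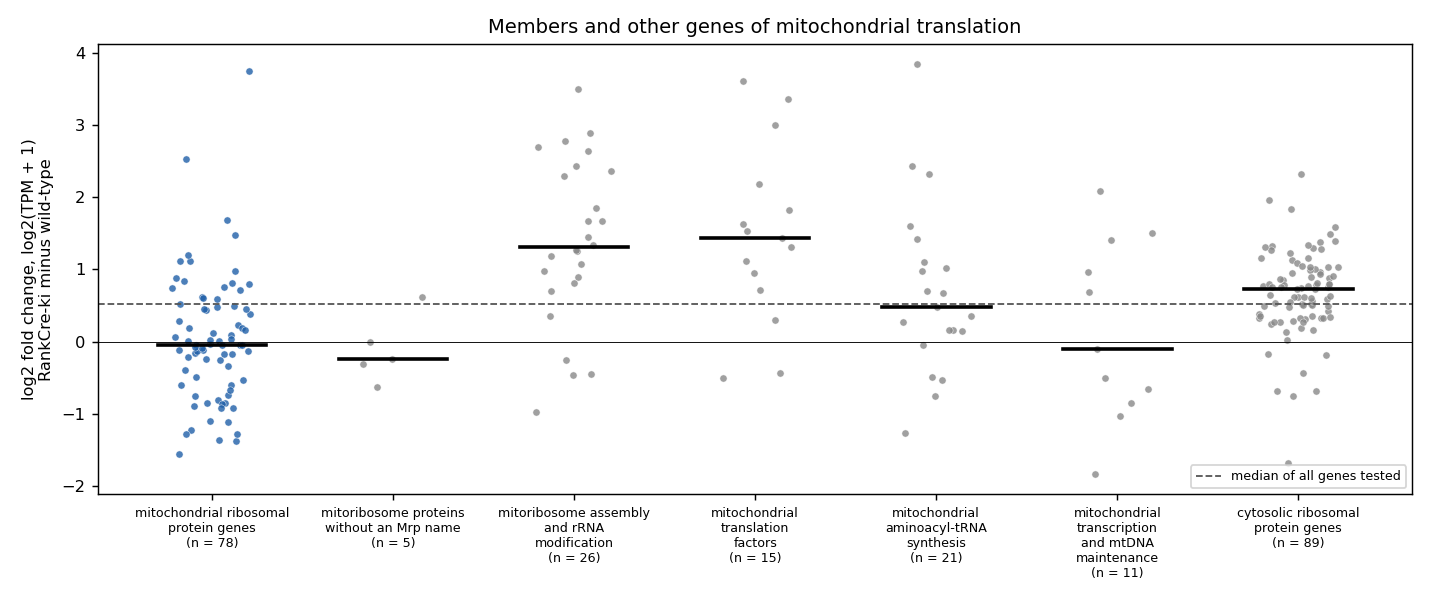
Log2 fold change (RankCre-ki minus wild-type, y axis) of each tested gene in 7 lists, with a bar at each list's median and a dashed line at the median of all genes tested (0.52). The members (-0.05) lie below, and assembly genes (1.30) and translation factors (1.44) above, that line.

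Promoter letters were compared over the 69 members that matched a RefSeq window, 250 bases before to 50 after the start, on both strands; the motifs were picked after the sequences had been read. CCGGAA was in 40 members (58%), against 16.7% of 27025 genes with a window and 32.2% of the 9477 tested genes with one. The other motifs were less frequent: AAGATGG, the core of YY1, was in 13 members (18.8%, against 8.76% of tested genes), GCGCATGC, the core of NRF1, in 8 (11.6%, against 6.04%) and ACTACAA in 5 (7.25%, against 5.05%). Members with CCGGAA had a median change of -0.17, with 8 of 40 below all wild-type libraries (20%), and those without it 0.18, with 5 of 29 below (17.2%), against 3.71% of all genes; the difference between these members was not tested. A match is only a run of letters and was not tested as a site. Mrpl42 is among the members without CCGGAA, while the windows of Mrps14, Mrpl33, Mrpl27 and Mrps18c hold it and that of Mrps5 holds none of the 4 motifs. The Mrpl42 window also holds the YY1 core and the Mrpl33 window the NRF1 core, matches not within the stretches shown above.

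Of the 5 processed pseudogenes left out by the rule, 2 bear on members. Mrpl23-ps1 had 368, 218 and 224 TPM in wild-type and 224 and 417 TPM in RankCre-ki libraries, above its parent Mrpl23 in every library (178, 114 and 75.4 against 73.3 and 112 TPM), so reads of the pair may be split between them. Mrps36-ps2 was at 11.2 TPM in RankCre-ki replicate 2 and at 0 elsewhere. The remaining 3 were under 1 TPM in every library.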

How the data were processed

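Bulk RNA of 80 to 90 sorted HSCs per library was converted to cDNA with an oligo(dT) primer and template switching, amplified, tagmented with a kit that differed between 2 sets of libraries, and sequenced in pairs. The authors aligned to mm10 and counted with featureCounts 2.0.1; the values they deposited are TPM per gene, and the program that made them is not given in the sources used here. The name series have the same makeup as the kit sets, so series, kit and sex transcripts cannot be told apart.

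From the deposited TPM, 92 spike-in rows at 0 were removed and 13981 genes that reached 1 TPM in 2 or more libraries were fitted as log2(TPM + 1) with limma 3.58.1 (R 4.3.3, eBayes with trend, two-sided, Benjamini-Hochberg over all genes, no covariate). The study's own fit used counts, which TPM cannot replace. The smallest value above 0 was 1.13e-10 TPM, so values are estimates and not whole reads, and depth is unknown. The pipeline was tested on simulated data. Exon overlaps are from GENCODE M21. Nothing in the labels says that replicates are separate animals, so p-values measure the spread between these libraries.

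The members and lists were chosen with earlier results of these data known. All members may be named; values are given for Mrpl42, the 10 most abundant, the 5 most negative and most positive changes, those with p under 0.05, and members whose groups do not overlap. Alternatives were other scalings, pseudocounts (0.1), filters (5 TPM, none), blocks, no trend and each library left out; the counts of separated members without single libraries were added after seeing the data. Values of a few listed genes outside the family are not reported here.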

Additional observations from a re-analysis of the deposited data

How the results depend on the processing

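No member passed the threshold under any alternative fitted, and Mrpl42 was lower under all of them, from -2.06 (median-ratio scaling) to -1.26 (without RankCre-ki replicate 2). The family median was -0.55 under median-ratio scaling, against -0.05 as reported, and -0.21 to 0.16 over fits that left out 1 library; it was 0.07 with the name series as a block. Over the whole table, 1 gene passed the threshold with the replicate block and 0 to 304 genes with 1 library left out: 304 without RankCre-ki replicate 1, where the remaining RankCre-ki library is assumed to vary like the wild-type ones, and 1 without wild-type replicate 1. The cause was not tested. Libraries with the same number share only a number: their deviations correlated at -0.38 and -0.20, over 2 pairs. With the replicate block the family median was 0.11, Mrpl42 was at -1.53, and 0 members had p under 0.05 and were lower, against 5; with no trend there were also 0, and with median-ratio scaling 15.

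Among the members whose values were followed under every alternative, the sign changed for 6. Mrpl30 was at -0.42 under median-ratio scaling, -0.083 when rescaled to nuclear protein-coding genes, -0.60 within name series 1 and -0.23 to 0.40 with 1 library left out (-0.064 without wild-type replicate 2, lowest without RankCre-ki replicate 1). Mrpl14 and Mrpl20 were at -0.12 and -0.011 under median-ratio scaling. With 1 library left out, Mrpl47 ranged from -0.52 (without wild-type replicate 1) to 2.19, Mrps21 from -0.94 to 0.15 (without RankCre-ki replicate 1) and Mrpl52 from -0.040 (without RankCre-ki replicate 2) to 2.28. Mrpl47 was at -0.28 within name series 2 and Mrps21 at 0.10 within name series 1. The median of the 9 abundant members was below 0 in every fit, from -1.35 to -0.57. Depth is unknown, so values near 0 TPM cannot be told from missed transcripts.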
